A study of Homo sapiens with 4 samples.

Results

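Binding of ELF5 at the loci of 7 other ETS transcription factor genes was described from a ChIP-seq peak list of T47D, a human breast cancer cell line of the luminal A type. Chromatin immunoprecipitation with sequencing recovers the DNA fragments that an antibody against a protein pulls down, and a peak is a stretch where such fragments pile up over the local background. The genes were ELF1, ELF2, GABPA and ETV6, which are expressed in most tissues, and the PEA3-type genes ETV1, ETV4 and ETV5. Each gene was given a fixed window on the hg19 genome build, and a peak was a member if its summit lay inside a window. The 7 windows, 1255 kb in all, held 32 of the 115384 peaks in the list.

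The series comprised 3 ELF5 ChIP replicates and 1 input sample from untreated cells grown in RPMI with 10% serum and insulin, all with the genotype of the line. The labels do not tell if the replicates were separate cultures. The data were 1 list for the whole series without replicate columns, so the spread among replicates is unknown for every peak and no group was tested against another. The input sample has no values of its own in the list, and a list of peaks holds no expression values against which the identity of the cells could be checked. All errors below are exact Poisson 95% intervals of the fragment count at the summit, with the background held fixed, and cover counting error only.

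ETS factors share a DNA-binding domain that reads a GGAA core, and the bases around the core and partner proteins add to the choice of site among family members. ELF5 is the ETS factor known for the alveolar cells of the breast, where it drives the secretory fate. Several ETS genes are known to carry ETS sites in their own regulatory DNA.

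The windows of ELF1, ELF2, GABPA and ETV6 held 2 to 5 peaks each, and the strongest of each had a fold enrichment over the local background of 20.6 or more. The windows of ETV4 and ETV5 held 7 peaks each, none with a fold above 6.54, and the window of ETV1 held 1 peak just inside the strong class. A strong peak is one among the highest 10% of folds in the list, which begin at a fold of 11.99. Of 32 member peaks 8 were strong, beside 10.0% of the list, and they fell in 5 of 7 windows. The 4 windows of ELF1, ELF2, GABPA and ETV6 held 7 strong peaks among 14, and the 3 PEA3-type windows held 1 among 18. These counts describe 1 list, in which peaks are not replicates, and the difference between the groups was not tested. The whole bands that hold the windows, members included, also differed in their share of strong peaks. It was 24.6% for ELF1, 25.5% for ELF2, 21.2% for ETV6 and 11.6% for GABPA. For ETV1 it was 4.88%, for ETV4 10.5% and for ETV5 11.9%. Members made up 2 of the 8 strong peaks in the GABPA band and 1 of 2 in the ETV1 band. The part of the bands in the difference was not tested. Among the highest 5% of folds (5.01% of the list with ties) were 5 member peaks, 2 at ELF2, 1 each at ELF1, GABPA and ETV6, and none in a PEA3-type window.

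**Figure D1:**
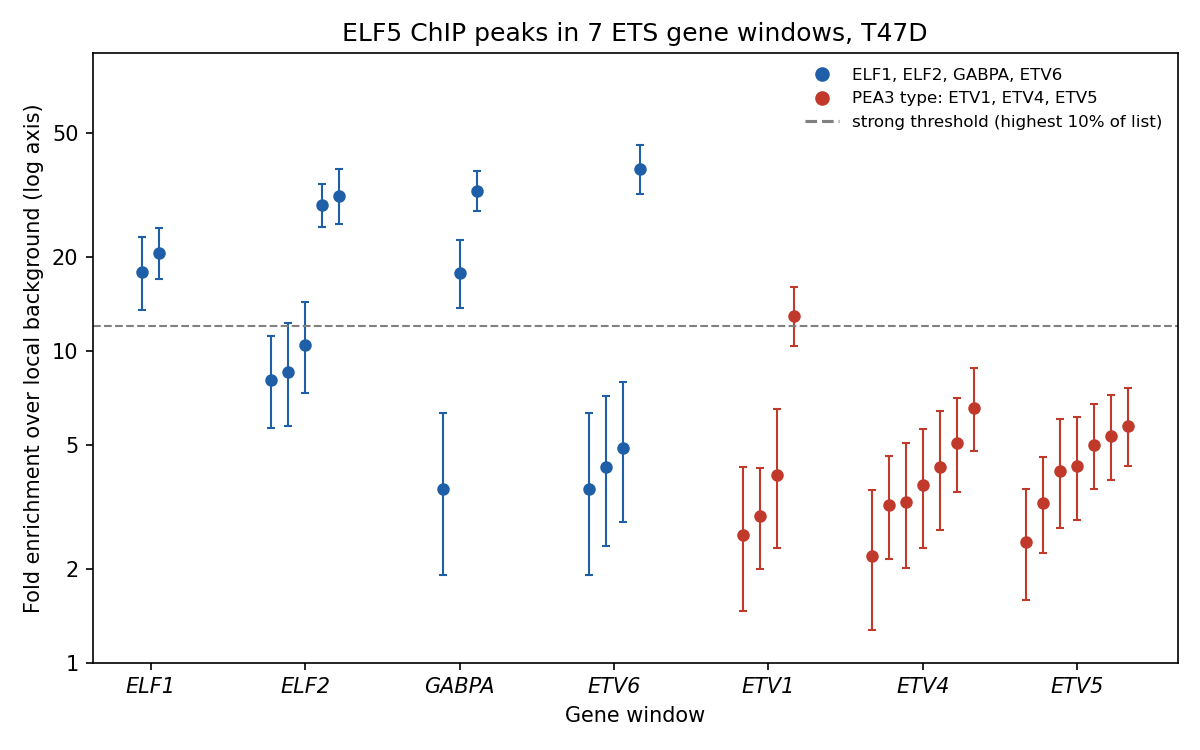
Fold enrichment of each of the 32 member peaks (log axis) by gene window, with exact Poisson 95% counting intervals as bars and the strong threshold of 11.99 as a dashed line. All 14 peaks of ETV4 and ETV5 lie under the line, while each of the other 5 windows has at least 1 peak above it.

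The order of the windows by their strongest peak ran from ETV6 (fold 38.2) through GABPA (32.6), ELF2 (31.4), ELF1 (20.6), ETV1 (12.9) and ETV4 (6.54) to ETV5 (5.75). The intervals of ETV6, GABPA and ELF2 overlapped, and so did those of ETV4 and ETV5, so the order inside these sets was not resolved at this depth. Of the 21 pairs of windows, 17 had strongest peaks with separate intervals. How often peaks of the whole list separate in this way was not computed. The count rests on counting error alone and depends on the window ends. With windows widened by 25 kb the strongest peak of ETV4 had a fold of 20.7. The strongest peak of ETV6 was 6.65 times that of ETV5 in fold.

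Fold is a ratio to the local background, and the background was mostly higher in the PEA3-type windows. The background recovered from the deposited values had a median of 2 fragments (1.81 to 4) in the 14 peaks of the first group and of 5.07 fragments (2.43 to 8) in the 18 PEA3-type peaks. The value of 1.81 was the lowest among the recovered peaks and was shared by 8.55% of the list. It was the background of 6 members, all in the first group, and whether it is a measured local level is not known here. The fragment pileup at the summit is not divided by the background. Its median was 44.5 in the first group and 27 in the PEA3-type group, beside 16 in the whole list. The median background of the list was 3.11 fragments, between those of the groups. Median folds were 14.0 in the first group, 4.06 in the PEA3-type group and 3.66 in the list. Among peaks that were not strong, the highest pileup was 35 in the first group and 47 in the PEA3-type group. The highest pileups of the single windows were 112 at ELF1, 160 at ELF2, 178 at GABPA and 125 at ETV6, against 84 at ETV1, 42 at ETV4 and 47 at ETV5. Counted among the highest 10% of pileups (59 fragments or more, 10.2% of the list with ties), 7 member peaks remained, all of them strong by fold, and the peak that dropped out was the wide one at ELF1. The part that differences in background have in the fold values was not tested.

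**Figure D2:**
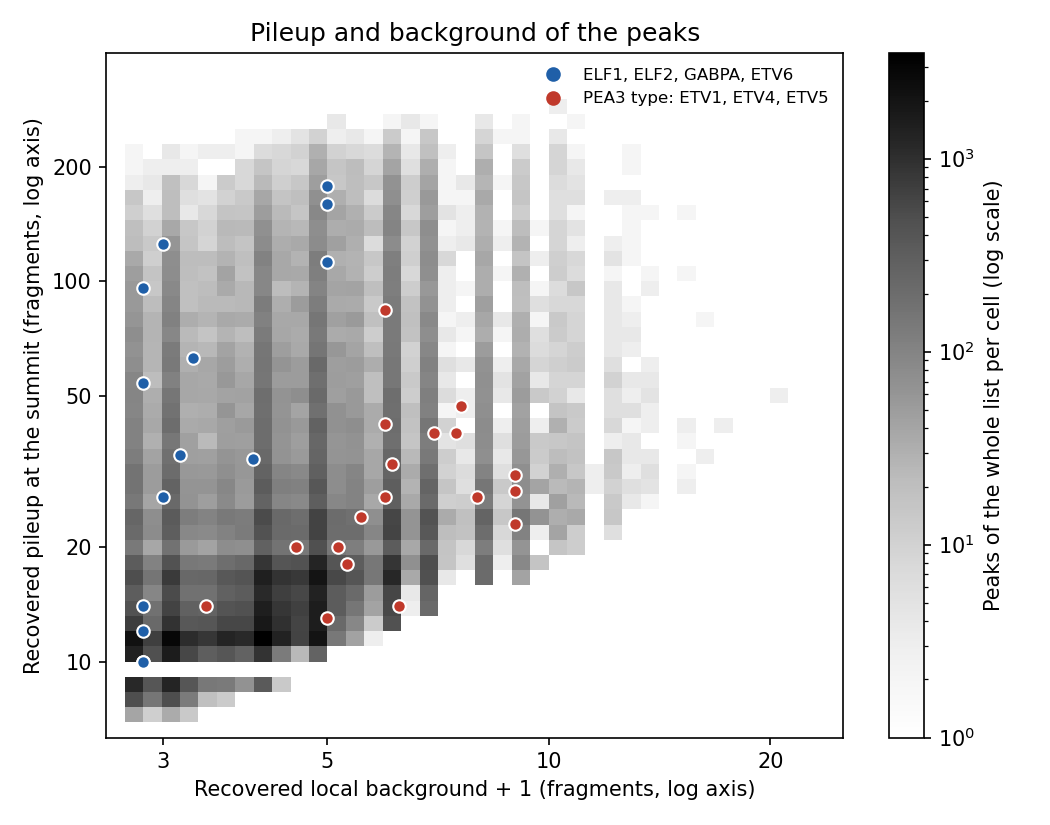
Recovered pileup at the summit (fragments before scaling by 0.910) against recovered background plus 1 (on the scaled side), on log axes. The whole list is shown as grey cells, darker for more peaks, and the 32 members as points. Most PEA3-type points lie to the right of those of ELF1, ELF2, GABPA and ETV6, with some overlap, and the points above 84 fragments all belong to ELF1, ELF2, GABPA and ETV6.

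ETV6, also called TEL, is a repressor that polymerises through its pointed domain and is a frequent fusion partner in leukaemia. Its window, chr12:11760001-12090000 in band 12p13.2, held 4 peaks with folds of 38.2, 4.88, 4.24 and 3.59. The strongest, chr12:11801625-11803011, was 1387 bp wide and had a pileup of 125 over a background of 2 (fold 38.2, 31.9 to 45.5). Its fold was the highest in the 7 windows. In the list it ranked 545 by fold and 1766 by p. The second summit lay 1.12 kb away, in a peak of 137 bp with a pileup of 12. The remaining 2 peaks had pileups of 14 and 10. The upper 207 kb of the window, the longest stretch without a summit in any of the 7 windows, held no peak, so the ETV6 window combined the highest member fold with a density of 12.1 peaks per Mb.

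GABPA encodes the ETS subunit of GA-binding protein, which pairs with a partner lacking the ETS domain and is known for its sites at promoters of mitochondrial and other housekeeping genes. Its window, chr21:27070001-27180000 in band 21q21.3, held 3 peaks. The strongest, chr21:27107044-27108285, had the highest pileup of all members, 178 over a background of 4 (fold 32.6, 28.0 to 37.7). In the list it ranked 1196 by fold and 769 by p. A peak near the upper end of the window, chr21:27173861-27174120, was also strong, at a fold of 17.7 (13.7 to 22.6), but only 260 bp wide. Between them lay a peak of the smallest width in the list, 135 bp, with a pileup of 10 and a fold of 3.59 (1.91 to 6.30). The summits of the strong peaks were 66.7 kb apart.

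ELF2 is a close relative of ELF1 within the ELF subfamily. Its window, chr4:139940001-140140000 in band 4q31.1, held 5 peaks, all with folds of at least 8.04. The peak chr4:140097188-140099017 had a fold of 31.4 (25.5 to 38.3) from a pileup of 96 over a background of 1.81. The peak chr4:140003935-140005885 had a fold of 29.3 (24.98 to 34.2) from a pileup of 160 over a background of 4. The first led by fold and the second by −log10 p, 168 against 112, so which of them was the strongest depends on the measure. Both were broad, at 1830 and 1951 bp, and their summits lay 93.4 kb apart. Another peak, with a fold of 10.4 (7.34 to 14.3), began 53 bp after the end of the first and was the member closest under the strong threshold. The other ELF2 peaks had folds of 8.04 and 8.52.

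ELF1, an activator of the same subfamily that is known from lymphoid gene regulation, had the fewest peaks. Its window, chr13:41470001-41670000 in band 13q14.11, held 2 peaks, both strong. The peak chr13:41495472-41496318 had a fold of 20.6 (17.0 to 24.7) from a pileup of 112. The peak chr13:41634169-41636227 had a fold of 17.8 (13.5 to 23.1) from a pileup of 54 over a background of 1.81. Their intervals overlapped, so they were not told apart in fold. The second was the widest member, 2059 bp, wider than 99.6% of the list, with its summit 1395 bp after its start. The summits were 140 kb apart, with no peak between them.

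ETV1, ETV4 and ETV5 form the PEA3 group, whose members act downstream of receptor tyrosine kinase and MAP kinase signalling and are known in branching epithelia. The ETV1 window, chr7:13890001-14070000 in band 7p21.2, held 4 peaks. The strongest, chr7:14030696-14031265, had a pileup of 84 over a background of 5 and a fold of 12.9 (10.3 to 15.9). Its interval reached under the strong threshold, and it was the strong member closest to it. The summits of 2 weak peaks lay on its lower side, 0.388 kb and then a further 0.996 kb away, with folds of 2.94 and 2.57. These 3 peaks, from 14029357 to 14031265 on chromosome 7, and 1 more 12.1 kb above with a fold of 4.01 were isolated. The nearest summits outside the window were 536 kb below its lower end and 306 kb above its upper end.

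The ETV5 window, chr3:185725001-185865000 in band 3q27.2, held 7 peaks with folds from 2.44 to 5.75 and a median of 4.26. The leading peak, chr3:185825442-185825787, had a pileup of 47 over a background of 6.62 (fold 5.75, 4.26 to 7.60). It stood in a group of 3 summits, 1.37 and 0.382 kb apart, with folds of 5.75, 5.00 and 5.34 and pileups of 47, 40 and 40. The pileup of 47 exceeded that of 86.7% of the list, while the fold exceeded that of 76.2%. The background in this window had a median of 6.48 fragments, against 6 in its band and 3.51 on chromosome 3, so the higher background was shared by the band.

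The ETV4 window, chr17:41570001-41665000 in band 17q21.31, also held 7 peaks, with folds from 2.19 to 6.54 and a median of 3.70. The leading peak, chr17:41622450-41624178, was broad for its fold, 1729 bp, and had a pileup of 42 over a background of 5 (fold 6.54, 4.76 to 8.78). The weakest, 135 bp wide, had a fold of 2.19 and the authors' q of 0.241. At ETV4 the absence of a strong peak depended on the window's edge. A strong peak, chr17:41560827-41561771, with a fold of 20.7 (17.6 to 24.1) and a pileup of 158, had its summit 8.66 kb below the lower end. DHX8 is the protein-coding neighbour on that side in the RefSeq table, and which gene this peak lies at was not analysed here.

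**Figure D3:**
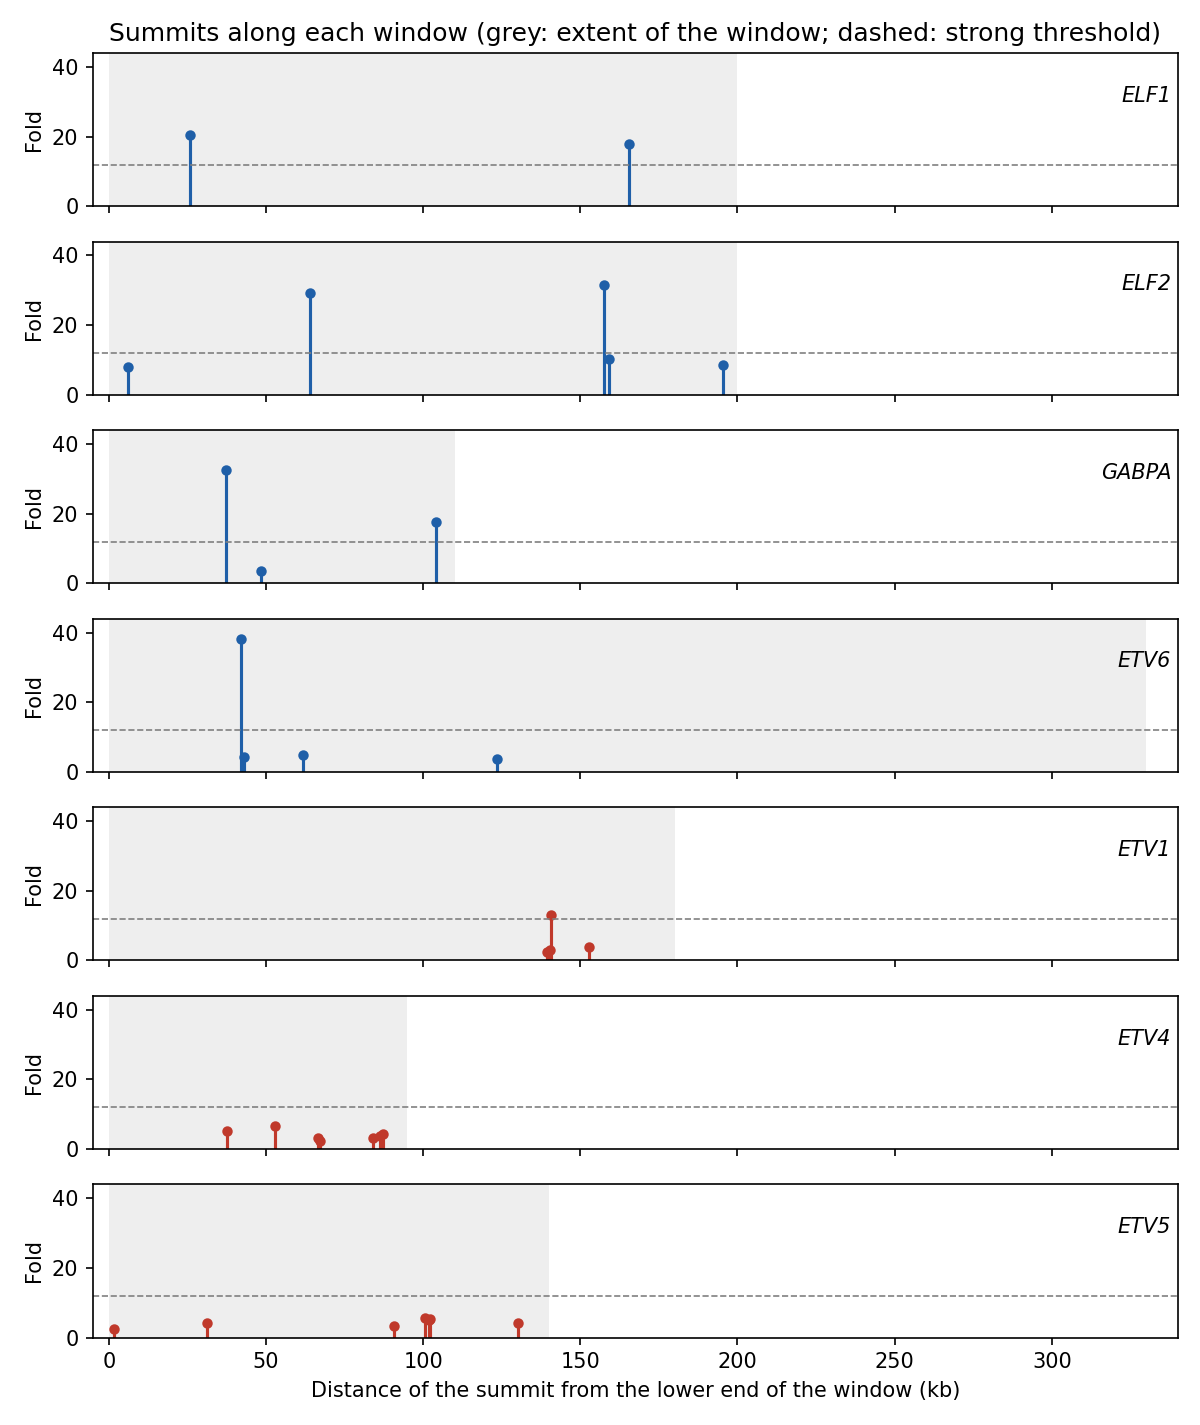
Fold enrichment of each summit against its distance from the lower end of its window in kb; the grey area is the extent of the window and the dashed line the strong threshold. Inside their windows ELF1, ELF2 and GABPA have 2 strong summits each, 66.7 to 140 kb apart, a count that depends on the window ends. ETV6 has 1 with an empty upper part, and the summits at ETV4 and ETV5 stay under the dashed line along the window.

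Among the 7 windows, the highest densities of all peaks and of strong peaks fell in different windows. Among their chromosomes, chromosome 17 was highest and chromosome 13 lowest in both densities. All peaks were densest in the windows of ETV4, with 73.7 per Mb, and ETV5, with 50, beside 38.0 over chromosomes 1 to 22 and X. The windows of GABPA, ELF2, ETV1, ETV6 and ELF1 followed with 27.3, 25, 22.2, 12.1 and 10.0 per Mb. The ETV4 window was nevertheless less dense than chromosome 17, with 99.6 per Mb, and than its band, with 136, while the ETV5 window was denser than chromosome 3, with 31.8, and than its band, with 44.7. Strong peaks were densest at GABPA, with 18.2 per Mb, and at ELF1 and ELF2, with 10.0 each, beside 3.80 over chromosomes 1 to 22 and X. Each of these densities rests on at most 2 strong peaks in a window, and their order depends on the window ends and the class. With windows narrowed by 10 kb at each end GABPA kept 1 strong peak and ELF1 and ELF2 kept 2 each.

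Set beside their own chromosomes, the windows of GABPA, ELF1 and ELF2 had more strong peaks per Mb, 18.2 against 2.33 on chromosome 21, 10.0 against 1.68 on chromosome 13 and 10.0 against 2 on chromosome 4. ETV1 also had more, 5.56 against 3.59 on chromosome 7. At ETV6 the value was lower, 3.03 against 4.28 on chromosome 12, from 1 strong peak in the longest of the windows. ETV4 lay on the chromosome with the highest value among the 7, 9.36 strong peaks per Mb, and had none in its window. ETV5 had none either, against 3.14 on chromosome 3. Whole chromosomes include gene-poor stretches and assembly gaps, which was not corrected for. Cut into consecutive stretches of the window's length, chromosomes 1 to 22 and X held at least 1 strong peak in 36.1% of stretches for the length of ELF1 and ELF2, 25.4% for GABPA, 46.6% for ETV6, 34.1% for ETV1, 22.9% for ETV4 and 29.4% for ETV5.

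**Figure D4:**
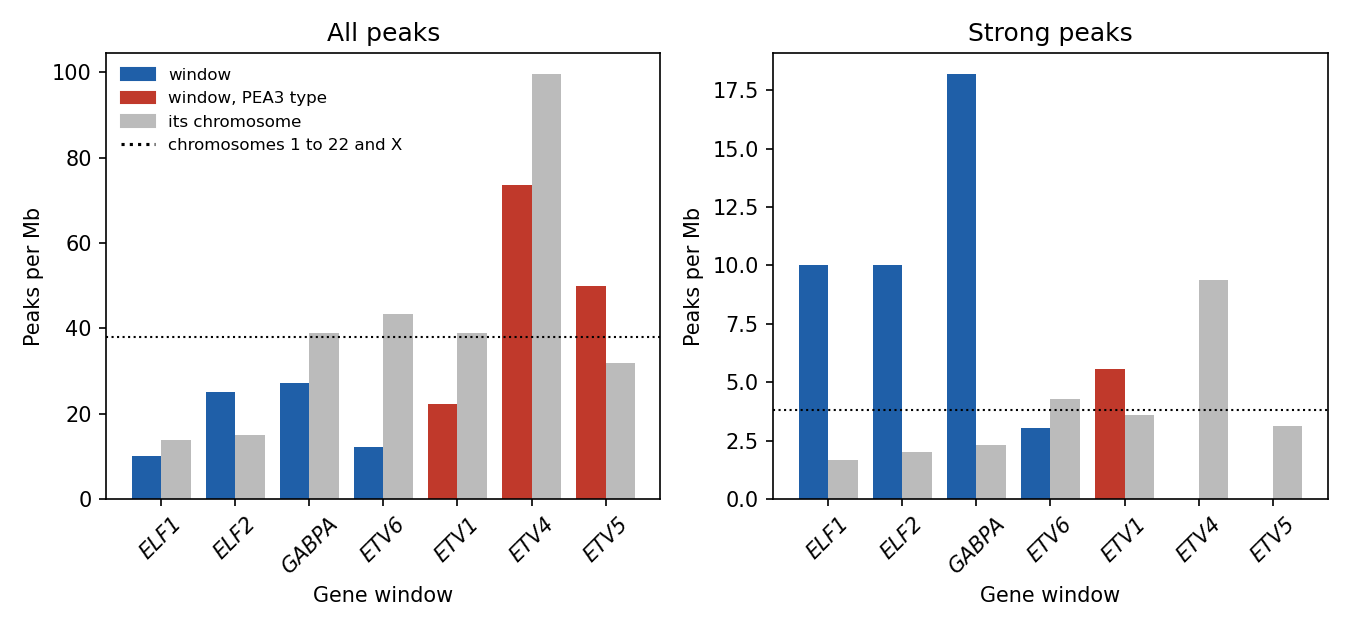
Peaks per Mb (left) and strong peaks per Mb (right) in each window (blue, or red for PEA3 type) and on its chromosome (grey), with the value over chromosomes 1 to 22 and X as a dotted line. ETV4 and ETV5 are highest in all peaks and at 0 in strong peaks, and GABPA is highest in strong peaks.

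Width and spacing were not used to choose the members. Their median width was 253 bp against 215 bp in the list, and the 8 strong members had a median of 1314.5 bp against 818 bp for strong peaks of the list. Among strong members only the GABPA peak of 260 bp and the ETV1 peak of 570 bp were narrower than 818 bp. A nearest summit under 1 kb away was found for 9 members, all of them among the 18 PEA3-type peaks, and for 38.4% of the list. The median distance to the nearest summit was 11.1 kb in the windows of ELF1, ELF2, GABPA and ETV6 and 1.18 kb in the PEA3-type windows, beside 1.56 kb in the list. Of 32 members 30 had the authors' q under 0.05, beside 87.5% of the list, and the exceptions were the weakest peaks of ETV1 and ETV4.

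Promoter sequences of the members were read from RefSeq on GRCh38.p14, from 250 bases before to 50 after a transcription start. They matched 5 of the 7 genes with 13 entries, some of them overlapping, and ETV4 and ETV5 were not matched. The GGAA core, on either strand (GGAA or TTCC), was in 11 of 13 entries and in 95.5% of all 35116 promoters, so it sets no promoter apart. The longer CCGGAA, which contains the core and is close to the sequence many ETS factors prefer, was searched on both strands (CCGGAA or TTCCGG). It was in 4 of 13 entries, 3 of ETV1 and the single one of GABPA, and in 17.2% of all promoters. These 3 are printed to show the motif in its promoter context, 5′ to 3′ on the strand of the gene, with CCGGAA or TTCCGG in capitals; the remaining ETV1 entry overlaps the first one shown. Positions are on GRCh38.p14 and were not converted to hg19, the build of the peaks. Whether a peak covers them was not analysed here.
GABPA, chr21:25734722-25735021, plus strand: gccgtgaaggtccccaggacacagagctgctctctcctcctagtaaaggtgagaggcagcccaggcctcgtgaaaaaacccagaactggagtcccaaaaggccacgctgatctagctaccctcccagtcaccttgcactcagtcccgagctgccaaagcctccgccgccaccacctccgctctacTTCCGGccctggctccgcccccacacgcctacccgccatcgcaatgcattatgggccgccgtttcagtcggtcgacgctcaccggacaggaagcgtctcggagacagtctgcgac
ETV1, chr7:13990653-13990952, minus strand: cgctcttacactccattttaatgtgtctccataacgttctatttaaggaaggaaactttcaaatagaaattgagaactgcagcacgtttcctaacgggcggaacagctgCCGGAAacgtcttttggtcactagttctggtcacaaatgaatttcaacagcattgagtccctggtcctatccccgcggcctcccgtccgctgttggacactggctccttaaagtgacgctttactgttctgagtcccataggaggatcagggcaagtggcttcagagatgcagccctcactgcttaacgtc
ETV1, chr7:13991376-13991675, minus strand: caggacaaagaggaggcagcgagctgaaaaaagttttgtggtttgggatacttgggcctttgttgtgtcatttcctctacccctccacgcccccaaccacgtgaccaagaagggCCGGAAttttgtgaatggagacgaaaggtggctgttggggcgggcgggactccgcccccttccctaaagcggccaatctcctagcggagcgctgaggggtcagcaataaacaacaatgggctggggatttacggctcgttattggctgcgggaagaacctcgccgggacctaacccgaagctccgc
In the GABPA promoter the motif begins 65 bases before the start of transcription, and in the ETV1 promoters 141 and 136 bases before. A match describes the letters and is no evidence of a bound site. The ELF1, ELF2 and ETV6 entries did not hold these 6 letters within their 300 bases.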

How the data were processed

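ELF5 ChIP-seq peaks of T47D were analysed from 1 deposited list; its build is hg19, per the file headers. An antibody is listed for each ChIP sample, but the shared protocol names only antibodies used in other lines. The sources used here do not name the aligner or caller, its threshold, the use of the input or any pooling, and the track name (IDR, 1-3) does not settle which replicates entered. The deposited signal column names no unit and was read as a fold, the ratio of ChIP over background. The authors' −log10 p and −log10 q were used as given, and the authors' score was the whole part of 10 times −log10 p. All of these are the authors' own values per peak, used only inside the list.

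Pileup and background were recovered from fold and p as a Poisson tail with pseudocount 1 and whole pileups scaled by 0.910. The fold is the scaled pileup plus 1 over the background plus 1. Pileups are given before scaling, so pileup over background as printed is not the fold. The recovery gave the p of 115366 of 115384 peaks within 0.001 of −log10 p, and of all 32 members with no second solution. On 4997 simulated peaks 99.98% of pileups were recovered. Those peaks were made with the same formula and another scaling factor. The simulation therefore checks the arithmetic and not whether the authors' values follow the formula. Total reads per sample are unknown here. Densities used hg19 lengths in GenomeInfoDb 1.38.1, and bands the hg19 table in circlize 0.4.16. Gene neighbours and promoters came from RefSeq on GRCh38.p14; no annotation of hg19 was used, so peaks were not assigned to promoters, exons or introns. The named peaks were, by rule, the strongest of each window and every strong peak; other peaks were named after their values were seen. The members, windows and lists were chosen with earlier results of these data known. Alternatives changed the window ends, the overlap, the list and the strong class. The scripts ran in Python 3.11.15 with scipy 1.17.1, pandas 2.3.3, numpy 2.4.6 and, for figures, matplotlib 3.10.9.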

Additional observations from a re-analysis of the deposited data

How the results depend on the processing

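Of 26 alternative values for the 4 summary results, 25 stayed within 1.5 times the main value. Some could not move, because leaving out weak peaks removes no strong peak and no leading peak. The strongest peaks were scored as the number of windows that kept theirs. That was 5 of 7 with windows widened and 6 of 7 when ranked by −log10 p. Of 140 alternative values for single windows, 15 moved. With the strong class set to the highest 5% of folds, 5 member peaks were strong instead of 8, and with the highest 10% by −log10 p there were 8. The number of peaks ran from 23 among the highest 50% of folds to 44 with windows widened by 25 kb. The median fold, 4.94, ran from 4.24 to 6.54. Joining summits within 1 kb left 27 peaks. Widening changed the strongest peak of ETV4 to 20.7 and of ETV5 to 7.29, and narrowing by 10 kb left GABPA with 1 strong peak. Ranking by recovered pileup was added after seeing the data. No paired analysis was possible because replicates have no separate values here, and leaving out replicates was not run for the same reason. Low pileups limit the ranking of weak peaks: at a pileup of 10 the interval of a fold of 3.59 ran from 1.91 to 6.30.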

Other observations

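Within 25 kb outside the window ends lay 12 further peaks, at 5 of the 7 windows, and 2 of them were strong. Besides the one below the ETV4 window, the strong peak chr4:139936447-139937553 had its summit 3.03 kb below the ELF2 window, with a fold of 13.3 (9.60 to 18.0) and a pileup of 40. The other 10 had folds from 2.44 to 7.29. The highest of these, chr3:185701325-185701982 below the ETV5 window, had a pileup of 63 over a background of 7, more fragments than any peak inside that window. ELF1 and ETV1 had no further peak within 25 kb outside their window ends. The next peak above the ELF1 window, 37.0 kb outside it, was strong, with a fold of 15.0 (11.7 to 19.1).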
